A study of Mus musculus with 28 samples.

Results

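Transcripts of 10 genes of the Hippo pathway and its output were followed through clonal lines of one kidney epithelial cell line. The genes were chosen by symbol: the co-activators Yap1 and Wwtr1 (which encodes TAZ), the DNA-binding partners Tead1, Tead2, Tead3 and Tead4, the kinases Lats1 and Lats2, and Amotl2 and Ankrd1, which YAP and TAZ are known to induce. They are 10 of the 45706 genes listed, and each had TPM (a level corrected for transcript length and scaled to the same sum in every library) above 0 in all 28 libraries. All libraries come from mIMCD-3 cells, an epithelial line derived from the inner medullary collecting duct of an SV40-transgenic mouse. The 7 groups of 4 libraries are polyclonal WT cells, monoclonal WT5, which was grown from 1 sorted cell of that line, and subclones 1 to 5, each grown from 1 sorted cell of WT5 and expanded for some weeks. No gene was edited and no agent was added in any group, all groups had the same medium, and RNA was taken 4 days after the cells had become confluent. The study asked how far lines without an edit differ from each other, and YAP was one of the proteins whose amount it followed. The values used here are of RNA alone, which does not report the phosphorylation or location of YAP and TAZ.

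The Hippo pathway limits organ size and cell number by keeping YAP and TAZ out of the nucleus. In crowded, polarized epithelium the kinases MST1 and MST2, with the scaffold SAV1, activate LATS1 and LATS2 together with MOB1, and the LATS kinases phosphorylate YAP and TAZ, which are then held in the cytoplasm or degraded. When the kinases are inactive, as in stretched or sparse cells, YAP and TAZ enter the nucleus and bind TEAD proteins, which supply the contact with DNA and turn on genes for growth, matrix and cytoskeleton. In the kidney the pathway is known for its part in nephron development and in cystic disease. Several targets, among them LATS2 and AMOTL2, in turn hold YAP back, so that the same transcripts serve as output and as brake.

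The TEAD proteins recognize the motif GGAATG, and 250 bases before an annotated start are shown for 4 of the 10 genes because the levels of 3 of them differed between the lines, while that of Yap1 hardly did. The sequences are from RefSeq on GRCm38.p6, 5′ to 3′ on the strand of the gene, with GGAATG or its reverse complement CATTCC in capitals. They lie at chr19:36119845-36120094 for Ankrd1 and chr17:28350601-28350850 for Tead3, both on the minus strand, at chr9:102717554-102717803 for Amotl2 on the plus strand, and at chr9:8004597-8004846 for Yap1 on the minus strand. For Tead3 the table holds 3 starts, and the one with the most matches is printed.
Ankrd1: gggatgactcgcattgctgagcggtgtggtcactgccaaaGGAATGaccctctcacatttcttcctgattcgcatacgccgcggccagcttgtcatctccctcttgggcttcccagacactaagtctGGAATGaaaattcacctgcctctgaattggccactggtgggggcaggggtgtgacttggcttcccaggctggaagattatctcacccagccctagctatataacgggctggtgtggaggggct
Amotl2: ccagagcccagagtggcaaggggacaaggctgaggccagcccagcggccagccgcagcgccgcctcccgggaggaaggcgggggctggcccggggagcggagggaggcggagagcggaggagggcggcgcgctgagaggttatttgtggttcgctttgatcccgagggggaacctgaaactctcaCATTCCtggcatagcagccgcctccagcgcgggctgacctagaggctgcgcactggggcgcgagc
Tead3: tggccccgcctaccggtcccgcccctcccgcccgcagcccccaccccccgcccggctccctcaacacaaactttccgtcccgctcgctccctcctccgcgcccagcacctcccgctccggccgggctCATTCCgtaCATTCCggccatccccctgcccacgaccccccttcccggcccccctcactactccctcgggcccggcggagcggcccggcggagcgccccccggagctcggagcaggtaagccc
Yap1: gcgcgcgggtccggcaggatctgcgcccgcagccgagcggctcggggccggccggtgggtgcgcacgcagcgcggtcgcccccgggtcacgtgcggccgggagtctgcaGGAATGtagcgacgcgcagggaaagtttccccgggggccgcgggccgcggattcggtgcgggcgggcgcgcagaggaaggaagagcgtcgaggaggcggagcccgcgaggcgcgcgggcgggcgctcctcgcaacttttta
Of the 10 genes, 8 had an entry in the promoter table. In windows from 250 bases before the start to 50 after it, searched on both strands, 6 of these 8 held the motif, against 16.5% of the 26742 genes with any window. Ankrd1 held 2 matches in its single window, which 1.36% of the 32544 windows had or exceeded. Tead3 held 3 in the window of the printed start, of which 1 begins at base 3 after that start, and 1 and 0 in its other windows. Tead2 and Lats1 held none in these windows, and in Lats2 the match begins at base 5 after one of its starts. A match describes letters only, and Yap1 and Wwtr1, whose levels were among the most even of the 10, hold one too.

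**Figure D1:**
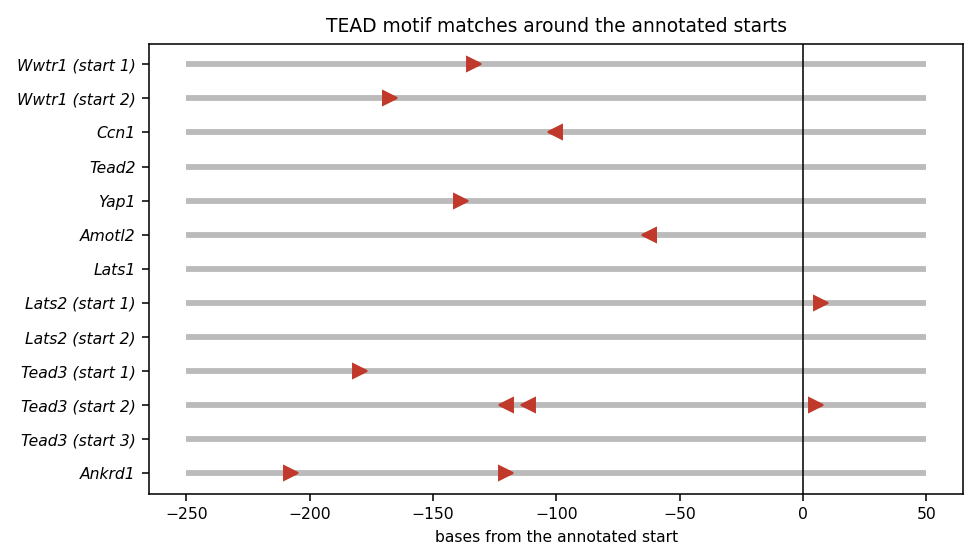
Matches to the TEAD motif GGAATG on either strand in each promoter window of the 8 genes with an entry and of Ccn1, by distance in bases from the annotated start. Grey lines are the windows, and the triangles point to the right for the strand of the gene and to the left for the opposite strand. Tead3 has 3 matches in 1 of its windows, Ankrd1 has 2 matches in 1 window, and Tead2 and Lats1 have none.

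Epithelial markers (Cdh1, Epcam, Krt8, Krt18, Krt19 and Cldn7) were present in every group, 6 of 6. Of 6 markers of the principal cell of the collecting duct (Aqp2, Aqp3, Avpr2, Scnn1a, Hsd11b2 and Gata3), 4 reached a mean of 1 TPM in polyclonal WT cells, with a sum of 16.53 to 19.86 TPM, and 1 did in each other group, with a sum of 5.6 to 5.86 TPM in WT5 and 3.83 to 8.14 TPM in the subclones. Aqp2, its water channel, was at 0 in all libraries. Of 3 intercalated cell markers (Atp6v1b1, Slc4a1 and Foxi1), 1 reached a mean of 1 TPM in polyclonal WT cells and 0 did elsewhere. Of 3 proximal tubule markers (Slc34a1, Lrp2 and Slc5a2), 1 did in every group. Endothelial and fibroblast markers reached a mean of 1 TPM in no group. Of 3 leukocyte markers (Ptprc, Cd68 and Csf1r), 2 reached it in every group. Ptprc stayed at or below 0.138 TPM on average, while Csf1r was at 10.6 TPM in polyclonal WT cells and 33.2 to 48.2 TPM elsewhere. Between 18681 and 19272 genes were above 0 in the polyclonal libraries and between 16270 and 17004 in all others. Subclone 3 replicate 2 and subclone 5 replicate 1 stood apart by the size of the shift, with a median log2 difference over the 10 genes from their sister libraries of -0.32 and -0.38, against -0.18 to 0.22 in the other 18 subclone libraries. They held their group's lowest level for 9 and 10 of the 10 genes, as subclone 1 replicate 3 and subclone 4 replicate 1 did for 9. TPM keeps no depth, so the reads behind a value are unknown. In bulk RNA, fewer expressing cells and less RNA per cell cannot be told apart.

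Across all 7 groups Amotl2, Ankrd1, Tead2 and Wwtr1 were the most abundant of these transcripts, and Tead4 the least. The mean of WT5 was the highest of the 7 for 8 of the 10 genes, and that of the polyclonal cells the lowest for 6. These are orders of TPM as deposited, and the share of all genes with such an order was not counted. The median gene moved the same way, with a log2 difference of 0.24 for WT5 against polyclonal cells. For the subclones against WT5 its log2 differences were -0.10 to -0.04. In the orders of levels most neighbouring groups had libraries that overlapped. Taken alone, the subclones formed 1 overlapping series for every gene except Tead4.

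**Figure D2:**
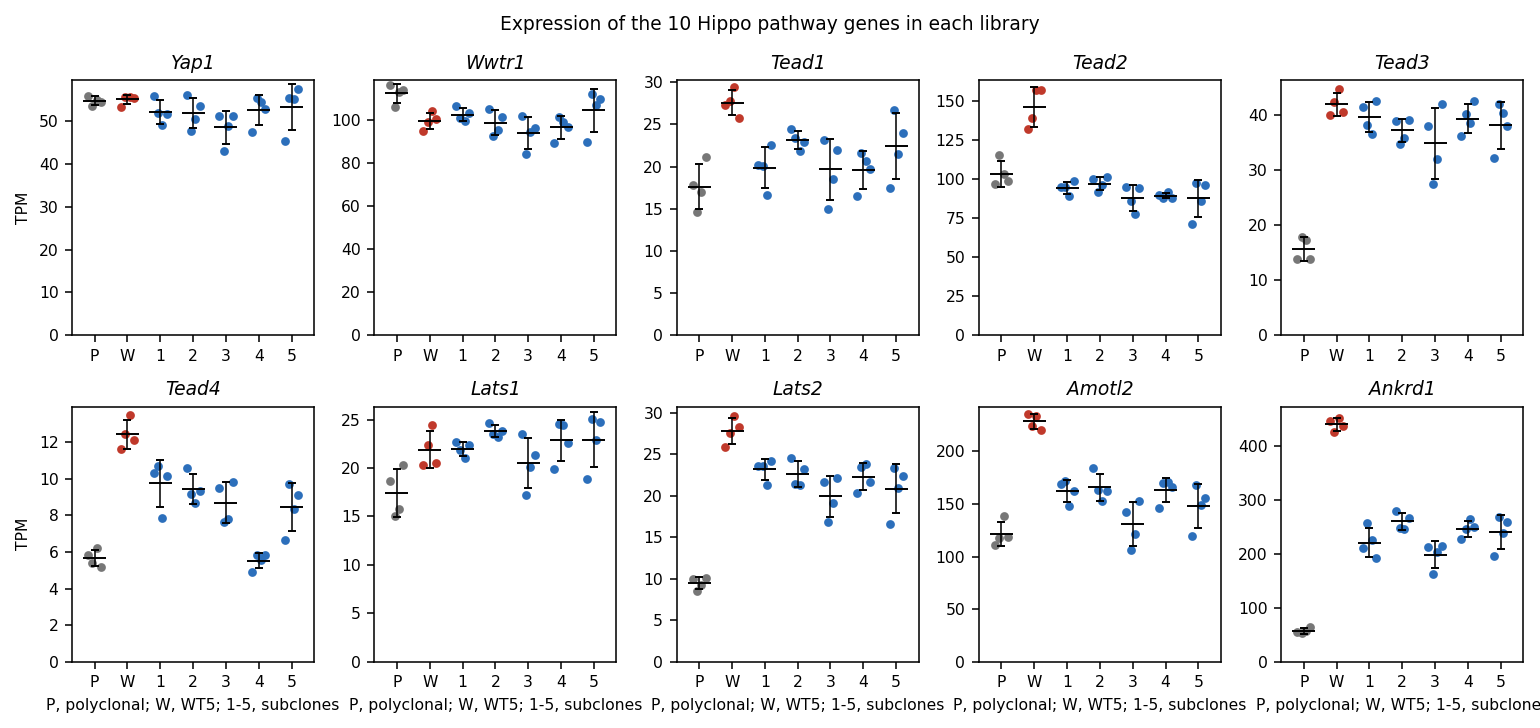
TPM of the 10 genes in every library, with P for polyclonal WT, W for monoclonal WT5 and 1 to 5 for the subclones. Points are libraries, horizontal lines means and bars SD (n = 4), and each vertical axis starts at 0. Ankrd1 lies between 53.63 and 63.96 TPM in polyclonal cells, between 425.45 and 452.77 in WT5 and between 162.33 and 279.91 in the subclones.

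The first comparison asks how a line grown from a single cell differs from the population it came from. WT5 had far more Ankrd1 RNA than polyclonal WT cells, 7.72 times as much, and also more Lats2 (2.94 times), Tead3 (2.67 times), Tead4 (2.19 times) and Amotl2 (1.88 times). Yap1 stood at the same TPM in both (1.01 times) and Wwtr1 was lower in WT5 (0.885 times). In TPM as deposited, the output genes and most TEAD genes thus differed more than the co-activators. With the general shift taken out, as described below, Wwtr1 differed more in size than Tead2, and Yap1 was lower in WT5 by limma. Polyclonal cells were sequenced as shorter single-end reads and WT5 as longer paired-end reads at another time, so that line and sequencing run cannot be told apart here.

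Differences below are on the log2(TPM) scale after z-scores within each library, which takes out a general shift. That shift matters here, since the median gene was 0.24 higher in WT5 on the log2 scale as deposited and 0.03 after z-scoring. All p-values are from limma with Benjamini-Hochberg adjustment over 13723 genes for this comparison. At an adjusted p below 0.01, 7 of the 10 genes were higher in WT5 and 2 lower, where 34.5% of all genes were higher and 30.9% lower. With a difference above 1 on the log2 scale (2-fold) as well, 3 were higher, Ankrd1, Lats2 and Tead3, and 0 lower, against 12.4% and 10.9% of all genes. Tead4 joined them without z-scores (log2 difference 1.13) and with genes above 0 in any library (1.23). None passed the study's own rule of a z-score difference above 1, about 8.56-fold in this comparison, which 2.31% of all genes passed upwards and 3.12% downwards. By libraries alone, 8 genes were higher without overlap (48.5% of all genes) and 1 lower (23.8%). The libraries of a line are called biological replicates in one place of the study and technical in another, so the p-values measure the spread between these libraries, which may be technical.

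Among the co-activators, Yap1, which encodes the main effector of the pathway, had 55.89, 53.42, 54.88 and 54.44 TPM in polyclonal cells and 53.27, 55.63, 55.61 and 55.43 TPM in WT5. The libraries overlap fully. Relative to the general shift Yap1 was lower in WT5 by limma, with a log2 difference of -0.20 (SE 0.03, adjusted p = 0.00121), but without z-scores the difference was 0.01 (adjusted p = 0.842), so its direction rests on the scaling. Wwtr1, the paralogue, had 116.46, 106.28, 113.31 and 114.19 TPM in polyclonal cells and 94.81, 99.15, 104.29 and 100.37 TPM in WT5. All WT5 libraries were below all polyclonal ones, and the log2 difference was -0.37 (SE 0.05, adjusted p = 0.000205, limma). Without z-scores that call was lost (adjusted p = 0.0108). The ratio of Wwtr1 to Yap1 in TPM stays the same when all genes of a library are multiplied by a common factor. It was 2.06 ± 0.0482 (SD, n = 4) in polyclonal cells and 1.81 ± 0.0445 in WT5, and its ranges, 1.99 to 2.10 and 1.78 to 1.88, did not overlap. An effect of the different reads on this ratio was not tested.

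The TEAD genes encode the DNA-binding partners, of which TEAD2 is best known from embryonic tissue and TEAD4 from the trophectoderm. Tead3 had 13.77, 17.9, 17.34 and 13.86 TPM in polyclonal cells and 39.95, 42.42, 44.75 and 40.59 TPM in WT5, a log2 difference of 1.21 (SE 0.10, adjusted p = 1.26e-05, limma). All WT5 libraries lay far above the highest polyclonal one. Tead4 had 5.83, 5.4, 6.23 and 5.2 TPM in polyclonal cells and 11.65, 12.43, 13.5 and 12.12 TPM in WT5, again without overlap, at a log2 difference of 0.91 (SE 0.06, adjusted p = 4.63e-06, limma). Tead1 and Tead2 were also higher in every WT5 library, by 0.44 (SE 0.11, adjusted p = 0.00694) and 0.31 (SE 0.08, adjusted p = 0.00697) on the log2 scale by limma. Those calls were close to the threshold. Leaving out any single library other than polyclonal replicate 4 ended the call for Tead1 (highest adjusted p = 0.0221), and leaving out any other than WT5 replicate 1 or polyclonal replicate 2 ended it for Tead2 (highest 0.0244).

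Summed over the family, TEAD transcripts stood at 142 ± 8.17 TPM in polyclonal cells and 228 ± 14.9 TPM in WT5. Tead2 made up 72.5% of that sum in polyclonal cells and 64.0% in WT5. The share of Tead3 was between 9.99% and 12.1% in the polyclonal libraries and between 17.3% and 19.1% in those of WT5. In TPM as deposited, the families of the lines differed in make-up as well as in amount, with Tead2 in the lead in all of them. The amounts are not corrected for the general shift, and between polyclonal cells and WT5 line and sequencing run cannot be told apart.

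**Figure D3:**
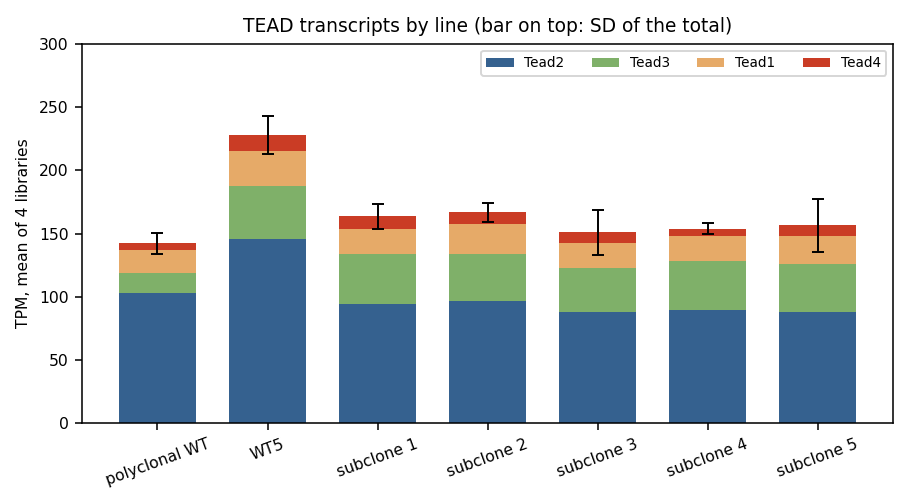
Mean TPM of Tead2, Tead3, Tead1 and Tead4, stacked, in the 7 groups (n = 4 libraries each), with bars for the SD of the total. The total is highest in WT5 at 228 TPM, and Tead3 takes a larger part in WT5 and the subclones than in polyclonal WT cells.

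The LATS kinases phosphorylate YAP and TAZ, and Lats2 is itself induced by them. Lats2 had 9.99, 8.49, 9.27 and 10.12 TPM in polyclonal cells and 25.91, 27.51, 29.64 and 28.24 TPM in WT5. The groups lie far apart, with a log2 difference of 1.34 (SE 0.06, adjusted p = 8.99e-07, limma). Of the 50-base stretches of its longest transcript, 56.5% also occur in Gm49361, a gene model that is not among the listed identifiers, while no other of the 10 genes shared more than 0.994%. Lats1 had 15.02 to 20.34 TPM in polyclonal cells and 20.36 to 24.41 TPM in WT5, ranges that just fail to touch, and its log2 difference of 0.12 (SE 0.11, adjusted p = 0.373, limma) did not pass the test.

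Ankrd1 and Amotl2, which like Lats2 are induced by YAP and TAZ, were higher in WT5. Ankrd1, a nuclear ankyrin-repeat protein of stretched muscle and a standard reporter of YAP and TAZ, had 54.44, 53.63, 56.26 and 63.96 TPM in polyclonal cells and 445.62, 425.45, 452.77 and 437.43 TPM in WT5. Its log2 difference of 2.76 (SE 0.07, adjusted p = 3.57e-08, limma) was the greatest of the 10 and lay between 2.73 and 2.84 when each library was left out in turn. Amotl2, an angiomotin that tethers YAP at junctions and actin, had 111.3, 117.86, 138.32 and 118.65 TPM in polyclonal cells and 235.56, 224.45, 233.62 and 220.12 TPM in WT5. That is a log2 difference of 0.73 (SE 0.06, adjusted p = 1.37e-05, limma), also without overlap. The summed TPM of the 6 epithelial markers moved the same way, 1954 to 2271 in polyclonal cells and 3389 to 3456 in WT5, and its part in these results was not tested.

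**Figure D4:**
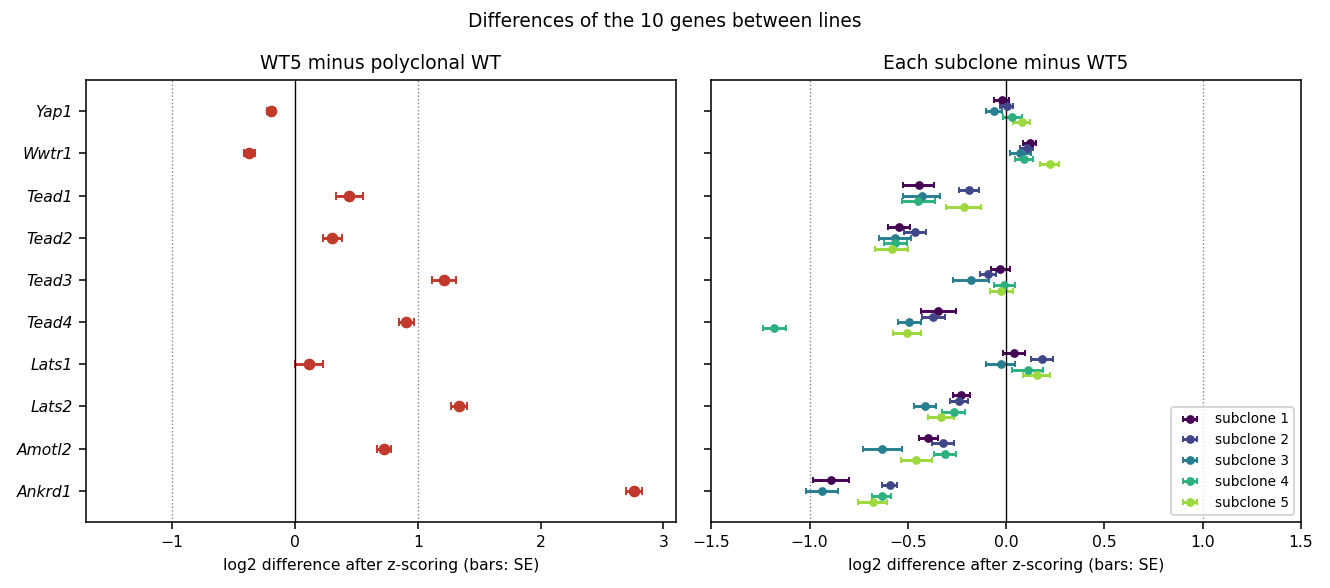
Log2 difference of the 10 genes after z-scores, with SE bars (4 libraries a group), for WT5 minus polyclonal WT on the left and for each subclone minus WT5 on the right. Dotted lines mark 2-fold, and the horizontal scales differ. Ankrd1 is at 2.76 on the left and between -0.94 and -0.59 on the right, and Tead4 of subclone 4 is the point beyond the left dotted line.

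The second comparison asks how far lines grown from single cells of WT5 move away from it again. All 5 subclones had less Ankrd1, Tead2, Amotl2 and Lats2 RNA than WT5, and 4 of the 5 less Tead4, by adjusted p below 0.01 in limma over 13860 genes. The share of all genes called lower in all 5 subclones was not counted. Ankrd1 stood at 0.451 to 0.592 times its WT5 level, Amotl2 at 0.572 to 0.725 times, Tead2 at 0.600 to 0.664 times and Lats2 at 0.716 to 0.832 times. Yap1, Lats1 and Tead3 passed the test in no subclone. The 5 comparisons share the WT5 libraries, which lie in another table than the subclones, so a difference common to all 5 cannot be told apart from one between the tables or in WT5 alone.

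By adjusted p alone, 5, 5, 6, 6 and 5 of the 10 genes were lower in subclones 1 to 5, where 13.6%, 12.6%, 10.9%, 19.2% and 11.7% of all genes were lower. Higher genes numbered 0 in subclones 1 to 4 and 1 in subclone 5, against 12.7%, 13.4%, 8.65%, 18.2% and 10.2% of all genes. Past 2-fold as well there was 1 gene, Tead4 in subclone 4, and 0 in the others, where 1.8%, 1.67%, 1.95%, 2.37% and 1.89% of all genes were lower and 1.29%, 0.952%, 1.71%, 2.42% and 1.5% higher. None passed the study's rule by limma in any subclone, which 0.152%, 0.144%, 0.173%, 0.202% and 0.173% of all genes did in either direction. With 1 library left out, the lower genes numbered at least 3 in subclones 1, 2, 4 and 5 and at least 5 in subclone 3. For 5 genes every subclone library lay below every WT5 library (Tead2, Tead4, Lats2, Amotl2 and Ankrd1), as it did for 12.3% of all genes.

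Ankrd1 had 210.54, 257.32, 224.9 and 191.7 TPM in subclone 1, 279.91, 248.75, 246.29 and 267.14 in subclone 2, and 213.19, 162.33, 204.14 and 214.68 in subclone 3. In subclone 4 it had 228.11, 245.88, 264.21 and 249.14 TPM and in subclone 5 it had 196.37, 267.99, 239.59 and 258.32. All 20 values lie in a gap between the polyclonal and the WT5 libraries. Its log2 differences from WT5 ran from -0.94 in subclone 3 to -0.59 in subclone 2, with adjusted p between 5.1e-05 and 0.000516 (limma), and the call was kept whichever single library was left out. With an unequal-variance test on the same z-scores in place of limma, it was lost in subclones 1, 3 and 5 (adjusted p = 0.0123, 0.0104 and 0.0132). Amotl2, with 106.11 to 183.67 TPM in the subclones, differed by -0.63 (subclone 3) to -0.31 (subclone 4) on the log2 scale, with adjusted p between 0.000742 and 0.00354 by limma. In subclones 2, 4 and 5 that call was lost on leaving out WT5 replicate 1 or 3, in subclone 5 also WT5 replicate 2 or its own replicate 3, and in subclone 2 also its own replicate 4, with adjusted p of at most 0.0136. With the unequal-variance test the Amotl2 call was lost in subclones 3, 4 and 5 (adjusted p = 0.0296, 0.0115 and 0.0269). In subclone 2 it was lost under 1 of the settings that keep all libraries.

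Of the TEAD genes, Tead2 was lower in all 5 subclones by -0.58 to -0.46 on the log2 scale (adjusted p from 0.000167 to 0.0017, limma). In subclone 2 that call was lost under 1 of the settings that keep all libraries. The subclone libraries held 71.44 to 100.9 TPM of Tead2, close to the 96.46 to 115.11 TPM of polyclonal cells, while WT5 held 131.61, 138.9, 156.64 and 156.7 TPM. Tead1 passed the test in subclones 1, 3 and 4, at -0.44, -0.43 and -0.45 on the log2 scale (adjusted p = 0.00344, 0.00979 and 0.00318, limma). These calls were lost on leaving out WT5 replicate 1, 2 or 3, and, with the adjusted p then at most 0.0315, that of subclone 3 on leaving out any single library but its own replicate 1. Subclone 1 replicate 2 and subclone 4 replicate 4 also decided the call of their own lines. Tead3 was at 27.46 to 42.49 TPM in the subclones against 39.95 to 44.75 in WT5, with log2 differences of -0.18 to -0.01 that did not pass (adjusted p at least 0.0989, limma). In subclone 2 all its libraries were below those of WT5, and in subclone 3 its mean was 0.831 times that of WT5. TEAD transcripts summed to 151 to 167 TPM in the subclones on average, and Tead2 made up 55.9% to 58.4% of them, less than in WT5.

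Lats2 was at 16.63 to 24.57 TPM in the subclones, between the polyclonal and the WT5 libraries without touching either. Its log2 differences from WT5, -0.41 (subclone 3) to -0.23 (subclone 1), had adjusted p between 0.00139 and 0.00724 by limma and were near the threshold. In subclone 3 the call held without any single library. In the others it was lost without most of them, with adjusted p of at most 0.0236, and was kept without replicate 1 of subclone 1 or of WT5 in subclone 1, without replicate 1 of either in subclone 2, without replicate 3 of subclone 4 in subclone 4, and without replicate 1 or 2 of subclone 5 in subclone 5. Lats1 held 17.26 to 25.1 TPM in the subclones and overlapped WT5 in each of them, with log2 differences of -0.03 to 0.18 (lowest adjusted p = 0.0317, limma, in subclone 2, and 0.00823 there without WT5 replicate 3).

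Of the co-activators, Yap1 had 43.03 to 57.47 TPM in the subclones with a median of 51.7, and its log2 differences from WT5 lay between -0.06 and 0.08 (adjusted p from 0.182 to 0.94, limma). In subclone 3 all its libraries, at 43.03 to 51.21 TPM, were below all those of WT5, at 0.883 times the mean level. Wwtr1 had 84.1 to 112.06 TPM, and passed only in subclone 5, where it was higher by 0.22 on the log2 scale (SE 0.05, adjusted p = 0.0094, limma) although the libraries overlap. That call was lost on leaving out any single library except subclone 5 replicate 1 (highest adjusted p = 0.031). Without z-scores Yap1 and Wwtr1 changed direction in several subclones, none of them past the test. The ratio of Wwtr1 to Yap1 averaged 1.84 in subclone 4 and 1.98 in subclone 1, with all subclones between the 1.81 of WT5 and the 2.06 of polyclonal cells.

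Measures of the whole library moved with WT5 too. The epithelial markers, 6 of 6 present, summed to 2063 to 2608 TPM in the subclones and to 3389 to 3456 TPM in WT5, and transcripts of the mitochondrial genome to 56012 to 102084 TPM in the subclones and to 42084 to 53037 TPM in WT5. Their part in the lower levels of Ankrd1, Amotl2, Tead2 and Lats2 was not tested.

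The third comparison sets the 5 subclones against each other, within 1 table and without WT5. They differed in Tead4, and in the other 9 genes no difference passed. By limma's F test over 14031 genes with Benjamini-Hochberg adjustment, 1 of the 10 genes had an adjusted p below 0.01, against 24.6% of all genes, and 0 of 10 also spanned more than 2-fold, against 5.32%, or passed the study's rule, against 0.613%. The median range of the subclone means over the 10 genes was 0.20 on the log2 scale, against 0.29 over all genes tested, which were not matched for level. Without both libraries that stood apart the counts were 1 and 0 again.

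Tead4 had 10.32, 10.69, 7.84 and 10.14 TPM in subclone 1, 10.61, 9.17, 8.67 and 9.31 in subclone 2, 9.48, 7.66, 7.8 and 9.8 in subclone 3, 4.92, 5.82, 5.54 and 5.82 in subclone 4, and 6.67, 9.71, 8.32 and 9.11 in subclone 5. Every library of subclone 4 is below every library of the other 4 subclones, and at the level of polyclonal WT cells. Across the subclones the means spanned 0.83 on the log2 scale (adjusted p = 1.91e-06, limma's F test, and at most 2e-05 when each library was left out). Subclone 4 was lower than the mean of the other 4 by a log2 difference of -0.74 (SE 0.07, adjusted p = 1.46e-07, limma), in a contrast where 18.4% of all genes passed. Subclone 1 was higher than the mean of the other 4 by 0.29 (SE 0.07, adjusted p = 0.00839, limma), in a contrast where 4.36% of all genes passed. That mean includes the low subclone 4, and the libraries of subclone 1 overlap those of subclones 2, 3 and 5. Against WT5, subclone 4 had 0.445 times the Tead4 level, a log2 difference of -1.18 (SE 0.06, adjusted p = 8.16e-06, limma), and Tead4 made up 3.59% ± 0.187 of its TEAD transcripts, against 5.38% to 5.94% on average in the other subclones. In subclone 1 the log2 difference of -0.34 from WT5 did not pass (adjusted p = 0.0175, limma), although all its libraries were below those of WT5. In subclone 5 the Tead4 call against WT5 was lost with the unequal-variance test (adjusted p = 0.0118). Tead3 and Tead4 share 10 stretches of 50 bases in their longest transcripts, and Tead3 did not pass among the subclones (adjusted p = 0.307, limma's F test).

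Ankrd1 came nearest of the rest, with means from 199 TPM in subclone 3 to 261 TPM in subclone 2 (adjusted p = 0.0179, limma's F test). It passed on leaving out subclone 1 replicate 2, at 0.00576, and under 3 of the other settings tried. Amotl2 had an adjusted p of 0.047 and passed with libraries centred on their medians, at 0.00277. For the other 7 genes the adjusted p lay between 0.0646 and 0.453. Yap1 spanned 0.14 on the log2 scale among the subclone means and Tead2 spanned 0.12, both narrower than most genes. Those genes include ones near the floor of detection, and spans were not compared among genes of like level.

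Over the 20 subclone libraries the members rose and fell together to different degrees, which is described here without a test, since libraries of a subclone share their source and 2 low libraries weigh on every pair. Pearson's r of log2(TPM + 0.1) lay between 0.48 and 0.94 for the 36 pairs without Tead4 and between 0.05 and 0.53 for the 9 pairs with it. Among 12142 genes with a mean of at least 1 TPM, Amotl2 was most like Bcar1 (r = 0.94), Miga1 (0.94) and Lats2 (0.94), of which Bcar1 encodes an adaptor at focal adhesions. The genes most like Ankrd1 were Tpm1, a tropomyosin (r = 0.89), Bcat1 (0.88) and Grb10 (0.87). Yap1 was most like Cyb5b, 2310022B05Rik and Clic4 (each 0.95) and Wwtr1 most like Spats2, Nomo1 and Wnt7b (each 0.95).

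Around these genes lie the upstream regulators, of which 36 were listed and 34 could be tested, all but Dchs1 and Fat4. Between WT5 and polyclonal cells, 20 of the 34 were higher and 7 lower by adjusted p below 0.01 in limma, where 34.5% and 30.9% of all genes were. Past 2-fold 5 were higher and 0 lower, near the 12.4% of all genes that were higher and below the 10.9% that were lower, with a median log2 difference of 0.31 against 0.03 for all genes. The 3 highest by difference were Map4k2, a kinase that can act on LATS in parallel to MST (109 ± 11.9 against 34.5 ± 1.58 TPM, log2 difference 1.46, SE 0.08, adjusted p = 1.83e-06, limma), Rassf1, a scaffold for MST (1.44, SE 0.07, adjusted p = 1.06e-06), and Taok3, a kinase upstream of MST (1.36, SE 0.09, adjusted p = 5.61e-06). In the 5 subclones against WT5 none of the 34 passed 2-fold, and the median differences lay between -0.13 and -0.02.

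Among the subclones 9 of the 34 regulators passed limma's F test and 0 of them past 2-fold, where 24.6% and 5.32% of all genes did, so the first count is near the general rate. Sav1, the scaffold of the MST kinases, had the lowest p (adjusted p = 6.71e-09, limma's F test), with 130.63, 148.66, 141.56 and 144.3 TPM in subclone 4 and 80.58 to 110.18 TPM in the other subclones. Mob1a, the co-activator of the LATS kinases, was low in subclone 4, with 52.4, 58.5, 60.08 and 57.04 TPM against 72.83 to 86.2 TPM in the others (adjusted p = 1.96e-07, limma's F test). Pals1, a protein of the apical Crumbs complex, was highest in subclone 4 at 32 ± 2.16 TPM and lowest in subclone 5 at 21.8 ± 2.13 TPM (adjusted p = 3.42e-06, limma's F test). Against the mean of the other 4 subclones, subclone 4 differed by 0.54 for Sav1, -0.48 for Mob1a and 0.41 for Pals1 on the log2 scale (adjusted p = 1.06e-09, 1.28e-08 and 4.19e-07, limma). In this contrast 18.4% of all genes passed. The 3 genes also passed in other lines, all 3 of them in subclone 5, where the log2 differences were -0.27, 0.15 and -0.24 (adjusted p = 6.87e-06, 0.0033 and 0.000207, limma). In the contrast of subclone 5, 14.5% of all genes passed, and the mean of the other 4 includes subclone 4. For Mob1a the libraries of subclone 5, at 74.1 to 82.51 TPM, overlap those of subclones 1 to 3.

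The VGLL proteins compete with YAP and TAZ for TEADs, and of the 4 genes Vgll3 and Vgll4 could be tested, while Vgll1 and Vgll2 could not. Vgll3 was near the floor of detection, at 0.42, 0.2, 0.21 and 0.21 TPM in polyclonal cells, 1.17, 1.09, 1.12 and 0.98 in WT5 and 0.06 to 0.4 in the subclones. It was higher in WT5 than in polyclonal cells by 1.87 (SE 0.23, adjusted p = 0.000159, limma) and lower in all 5 subclones than in WT5 by -3.21 to -1.83 on the log2 scale (highest adjusted p = 0.000497, limma). In subclone 5 it passed the study's rule, as did 0.173% of all genes. Vgll4 was at 66 to 106 TPM on average and differed among the subclones (adjusted p = 6.44e-05, limma's F test), with subclone 4 the lowest.

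Further target genes of YAP and TAZ did not all follow Ankrd1. Of 19 listed, 17 could be tested between WT5 and polyclonal cells, all but Foxf2 and Igfbp3. There 6 were higher and 3 lower past 2-fold, where 12.4% and 10.9% of all genes were, with a median log2 difference of 0.74 against 0.03 for all genes. Fjx1, a homologue of a Drosophila growth regulator, was 46.1 times as high in WT5, with 9.06, 9.43, 9.18 and 10.13 TPM against 0.2, 0.2, 0.25 and 0.17 in polyclonal cells (log2 difference 5.29, SE 0.12, adjusted p = 1.99e-08, limma), and passed the study's rule. Its polyclonal level is near the floor of detection, so the size of that ratio is uncertain. Rbms3, an RNA-binding protein, was higher by 2.53 (SE 0.17, adjusted p = 4.97e-06). Ccn2, the matricellular protein long called CTGF, had 115.01, 152.3, 176.62 and 204.38 TPM in polyclonal cells and 901.54, 853.43, 838.87 and 792.93 TPM in WT5, a log2 difference of 2.24 (SE 0.17, adjusted p = 9.27e-06, limma).

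The 3 lower genes were Ccdc80 (log2 difference -4.22, adjusted p = 3.4e-07, limma), which passed the study's rule as well, Nt5e (-2.91, adjusted p = 1.76e-06) and F3 (-1.22, adjusted p = 1.18e-07). F3, the tissue factor that starts coagulation, was at 754 ± 22.5 TPM in polyclonal cells and 364 ± 12.5 TPM in WT5. Ccdc80 and Nt5e were low throughout, at 2.28 and 0.518 TPM on average in polyclonal cells and 0.15 and 0.0825 in WT5. Ccn1, the paralogue of Ccn2, had 672.53, 1103.36, 1312.57 and 1496.58 TPM in polyclonal cells and 1624.83 to 1803.41 TPM in WT5. The polyclonal libraries spread widely, and the log2 difference of 0.50 (SE 0.23, adjusted p = 0.0803, limma) did not pass.

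**Figure D5:**
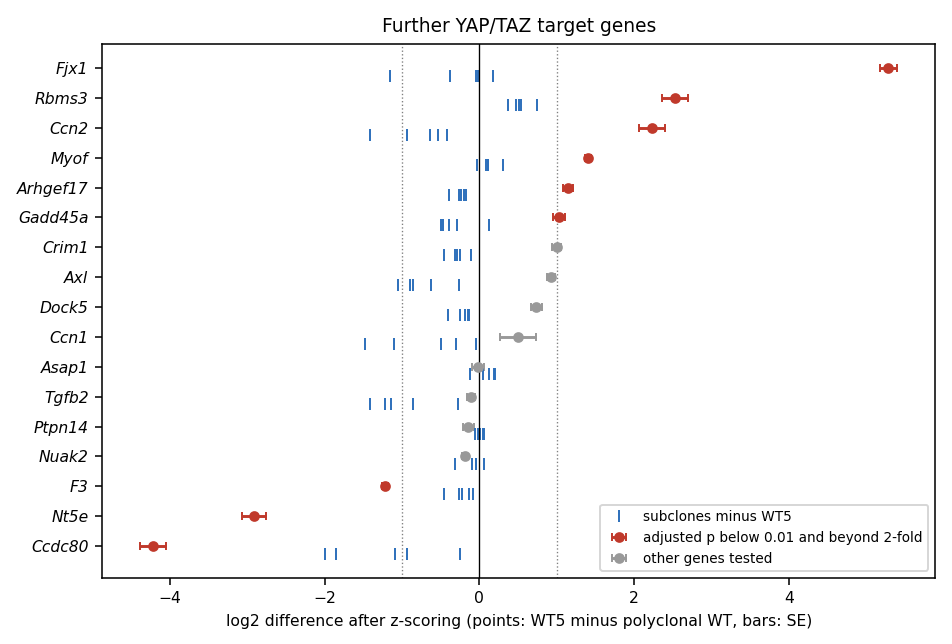
Log2 difference after z-scores of the 17 further target genes tested, as points with SE bars for WT5 minus polyclonal WT (4 libraries each), in red where the adjusted p is below 0.01 and the difference beyond 2-fold. Blue ticks give each of the 5 subclones minus WT5, and Nt5e has none because it was not tested there. From Fjx1 at 5.29 to Ccdc80 at -4.22, the targets lie on both sides of 0.

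Against WT5, 16 of these target genes could be tested in the subclones, Nt5e being left out as well. Past 2-fold the lower genes were Ccn1 and Tgfb2 in subclone 2, Ccn1, Ccn2 and Tgfb2 in subclone 3, Tgfb2 and Axl in subclone 4 and Fjx1 in subclone 5, with 0 in subclone 1 by limma, and in no subclone was one of them higher. Of all genes 1.8%, 1.67%, 1.95%, 2.37% and 1.89% were lower past 2-fold in subclones 1 to 5. The median differences lay between -0.29 and -0.12. Tgfb2, a growth factor, is named after its values were seen.

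Among the subclones 8 of the 16 target genes passed the F test and 3 of them, Ccn1, Fjx1 and Tgfb2, also spanned more than 2-fold, against 24.6% and 5.32% of all genes. Ccn1 had 1336.07 to 1925.58 TPM in subclone 1 and 424.88 to 689.9 TPM in subclone 3, with a mean 2.94 times as high in the former (adjusted p = 7.05e-05, limma's F test). Ccn2 had the same highest and lowest lines, at 578 ± 65.1 and 271 ± 54.7 TPM (adjusted p = 0.000109, limma's F test). Fjx1 had the lowest p (adjusted p = 1.79e-08, limma's F test), with 2.98, 4.27, 4.44 and 5.04 TPM in subclone 5 and 6.42 to 11.11 TPM in the others. Gadd45a, a stress-response gene, was highest in subclone 4 (88.3 ± 3.09 TPM) and lowest in TPM in subclone 3 (57.8 ± 4.31 TPM), at an adjusted p of 8.66e-06 by limma's F test. Axl, a receptor tyrosine kinase, was highest in subclone 5 (19.6 ± 2.57 TPM) and lowest in subclone 4 (11.9 ± 0.74 TPM), at 1.8e-05. The extremes thus lay in different subclones for different target genes, although Ccn1, Ccn2 and Tgfb2 were all lowest in subclone 3. By its z-scored means subclone 3 was also the lowest for Yap1, Wwtr1, Tead3, Lats1, Lats2, Amotl2 and Ankrd1, none of which passed the F test. Tead1 and Tead4 were lowest in subclone 4 and Tead2 in subclone 5. Whether these levels are linked to those of the target genes was not tested.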

How the data were processed

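RNA of 28 libraries, 4 in each of 7 groups, was sequenced, and the authors deposited TPM per gene in 2 tables, one with polyclonal WT and WT5 and one with the 5 subclones. The submitters' processing notes name CASAVA 1.8, STAR 2.7.3a, RSEM 1.3.1 and the build GRCm38. TPM values are scaled to a fixed sum in each library, so they hold no depth, no counting interval can be given, and a change in a few abundant transcripts shifts all others. Groups were taken from the sample titles, and all columns were used (0 unused). The titles call WT5 monoclonal, and its name comes from the study.

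Genes detected in every library of a table set (WT5 with polyclonal WT, WT5 with the subclones, or the subclones alone) were log2 transformed without a pseudocount and turned into z-scores within each library. The study names z-scores of log2(TPM), and the gene filter, the missing pseudocount and the scaling by library were choices made here. Groups were compared with limma 3.58.1 in R 4.3.3, two-sided, with Benjamini-Hochberg adjustment over all genes tested. The study compared groups with an unequal-variance test, which was run here as an alternative. Log2 differences are z differences multiplied by the mean SD of log2(TPM). Calls needed an adjusted p below 0.01, alone, with a log2 difference above 1, or with a z difference above 1. In simulated data of 13723 genes for WT5 against polyclonal WT, 200 genes were changed, drawn from those above 1 TPM by the mean of log2(TPM). Of the genes changed by 1.5 on the log2 scale, 95% were called past 2-fold. The noise was independent between genes, with the spread of the polyclonal libraries, so the share found in the real data may differ. Other steps used Python 3.11.15. From the pathway lists, up to 3 genes a direction with the largest 2-fold calls between WT5 and polyclonal WT and the 3 with the lowest F test p among the subclones were named, with Ccn1 and Ccn2 in any case. The genes and lists were chosen with earlier results of these data known. Alternatives were pseudocounts of 0.1 and 1, other filters and scalings, an unequal-variance test, a replicate block, a fit over WT5 and all subclones, and leaving out libraries.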

Additional observations from a re-analysis of the deposited data

Results flagged for a closer look

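Yap1 in WT5 replicate 1, at 53.27 TPM, lay apart from the other 3 WT5 libraries, at 55.43 to 55.63 TPM. The gap was 0.915 of the range of the group, above Dixon's critical value for 4 samples. It was 1 of 70 groups of 4 libraries looked at, where chance alone gives about 1 in 20.

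Tead4 differed among the 5 subclones, with an adjusted p of 1.91e-06 by limma's F test. Subclone 4 held 4.92 to 5.82 TPM and the other subclones 6.67 to 10.69 TPM.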

How the results depend on the processing

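The counts past 2-fold stayed within 1.5 times in all settings except 4, each of which gave 1 gene, Ankrd1, in place of 0: subclone 1 without z-scores, and subclone 3 without z-scores, with libraries centred on their medians, and with genes above 0 in any library. With 1 library left out they stayed at 3 to 3 for WT5 against polyclonal WT, 1 to 1 for subclone 4 and 0 to 0 elsewhere. Past 2-fold Tead4 was gained between WT5 and polyclonal WT without z-scores (1.13) and with genes above 0 in any library (1.23). Differences that changed sign did not pass under the setting that turned them, but that of Yap1 between WT5 and polyclonal WT had passed before, at -0.20. Without z-scores Yap1 was at 0.0086 for WT5 against polyclonal WT and at -0.0876, -0.0677 and -0.0503 in subclones 2, 4 and 5, and Wwtr1 at -0.0123, -0.0832 and -0.0434 in subclones 2, 3 and 4. Yap1 in subclone 2 was also at -0.00063 and -0.0029 with pseudocounts of 0.1 and 1, -0.0018 with a mean of at least 1 TPM, -0.0101 with genes above 0 in any library and -0.0331 with median centring, where Lats1 in subclone 3 was at 0.0011. With 1 library left out, Yap1 in subclone 2 ran from -0.0144 to 0.0206, Lats1 in subclone 3 from -0.0727 to 0.0192, and Tead3 from -0.0456 to 0.0250 in subclone 4 and from -0.0573 to 0.0082 in subclone 5. The cause was not tested.

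Calls by adjusted p alone depended more on the test. The unequal-variance test left 3, 3, 3, 3 and 1 lower genes in subclones 1 to 5. Replicate numbers do not pair the libraries, since the 24 same-numbered pairs had correlations of -0.046 to 0.064, with 0 over 0.1 and 6 best with their own number. With the replicate block the counts past 2-fold were 3 for WT5 against polyclonal WT, 1 for subclone 4 and 0 elsewhere, and the lower genes by adjusted p alone were 2, 2, 1, 4 and 2 in the subclones. Leaving out both low libraries, chosen after seeing the data, gave 1 gene among the subclones again, Tead4. TPM holds no depth, so the precision of low values such as those of Vgll3 is unknown.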
